A study of Mus musculus with 8 samples.

Results

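Cyclins are the regulatory subunits of the cyclin-dependent kinases (CDKs), and the pairs they form drive a cell from one phase of its cycle to the next. Of this family, 10 genes were followed here in mouse embryos treated with trimetazidine (TMZ), namely Ccnd1, Ccnd3, Cdk4, Ccne1, Ccne2, Cdk2, Ccna2, Ccnb1, Ccnb2 and Cdk1. The genes were chosen by name. The deposited tables list expression values without gene names, so each gene was found from the length that its values imply and from its place in the order of Ensembl identifiers. All 10 were found in both tables, among 31899 entries in 8-cell embryos and 29202 in morulae.

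The embryos were of wild-type genotype and were cultured in KSOM medium with 100 µM TMZ or without it. TMZ inhibits long-chain 3-ketoacyl-CoA thiolase, the last enzyme of fatty acid β-oxidation, and by the protocol in the labels it was given from the 2-cell stage. RNA was amplified as full-length mRNA and sequenced from 4 groups, namely control and TMZ-treated 8-cell embryos and control and TMZ-treated morulae, with 2 libraries in each. In the 8-cell table a single header stands over both TMZ columns, and their libraries, without a replicate number, are named A and B below. The labels do not say that replicates came from separate cultures, and the P-values below measure only the spread between these libraries. Whole embryos were sequenced, so fewer cells that express a gene cannot be told apart from less of its RNA in each cell. The values are scaled to the depth of each library, so a change in the total RNA of an embryo would not show.

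The 3 classes of cyclin act in turn. D-type cyclins bind CDK4 in G1 and begin the phosphorylation of the retinoblastoma protein, and E-type cyclins with CDK2 complete it and start DNA replication. Cyclin A2 serves S phase and G2, and B-type cyclins with CDK1 drive mitosis until the anaphase-promoting complex marks them for destruction. Cleaving embryos divide without growing, and D-type cyclins are known to be scarce in them.

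Values are FPKM, the fragments of a gene per kilobase of its length and of the depth of its library. The libraries held between 31672356 and 64814423 fragments, and single members rested on 95 to 254933 fragments. TMZ library A of the 8-cell stage stood apart with 19466 entries above 0, against 21813 to 25336 in the other libraries of that table. Replicates differed more at the 8-cell stage, with a typical SD of 0.40 for control and 0.55 for TMZ on the log2 scale, than at the morula stage, where it was 0.32 and 0.31. Of 10 preimplantation embryo markers, 9 were found in 8-cell embryos and 8 in morulae, among them Pou5f1, Nanog, Klf5 and Dppa2 in every library. Sox2 reached at most 0.120 FPKM in 8-cell embryos and was given no name in morulae, and Tead4 was given none in either table. Of the 8 markers tested in morulae, 5 were lower after TMZ, where 10.7% of all entries tested were, and none was higher. None of the 7 tested in 8-cell embryos was called, where 6.31% of all entries tested were. Of the cumulus and granulosa cell markers, 5 of 11 were found in each table, and only Amhr2 among them exceeded 0.0942 FPKM, with 8.21 to 19.5 FPKM in 8-cell embryos and 6.42 to 13.2 FPKM in morulae. Amhr2 was called lower after TMZ in 8-cell embryos (log2 fold change -0.91), a call that was lost when the libraries were rescaled by median ratios and without either control library. Sperm markers, 4 of 7 found in each table, summed to at most 2.05 FPKM in any library. None of the 6 and 3 oocyte and maternal transcripts tested in 8-cell embryos and morulae was called. Of all entries tested 6.31% and 17.9% were called, so counts this small say little. The part of these markers in the results on cyclins was not tested.

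A gene was called at an unadjusted P under 0.05 together with a log2 fold change beyond 0.5, by limma-trend on log2(FPKM + 1). At the 8-cell stage 0 of the 10 cyclin and CDK genes were called, against 6.31% of the 10021 entries tested (1.35% higher and 4.96% lower). None of the 10 had an unadjusted P under 0.05 there, by limma-trend or by voom on recovered fragment numbers. In morulae 0 of the 9 tested were called, against 17.9% of the 9685 entries tested (7.16% higher and 10.7% lower). By limma-trend 1 of these 9, Cdk4, had an unadjusted P under 0.05, and voom called 1, Ccnd3. The median log2 fold change of the cyclins and CDKs was -0.09 at the 8-cell stage, beside -0.19 over all entries tested, and -0.24 in morulae, beside -0.08. A P that misses the threshold does not show that the levels were equal, and the intervals given below state what size of change the libraries allow.

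**Figure D1:**
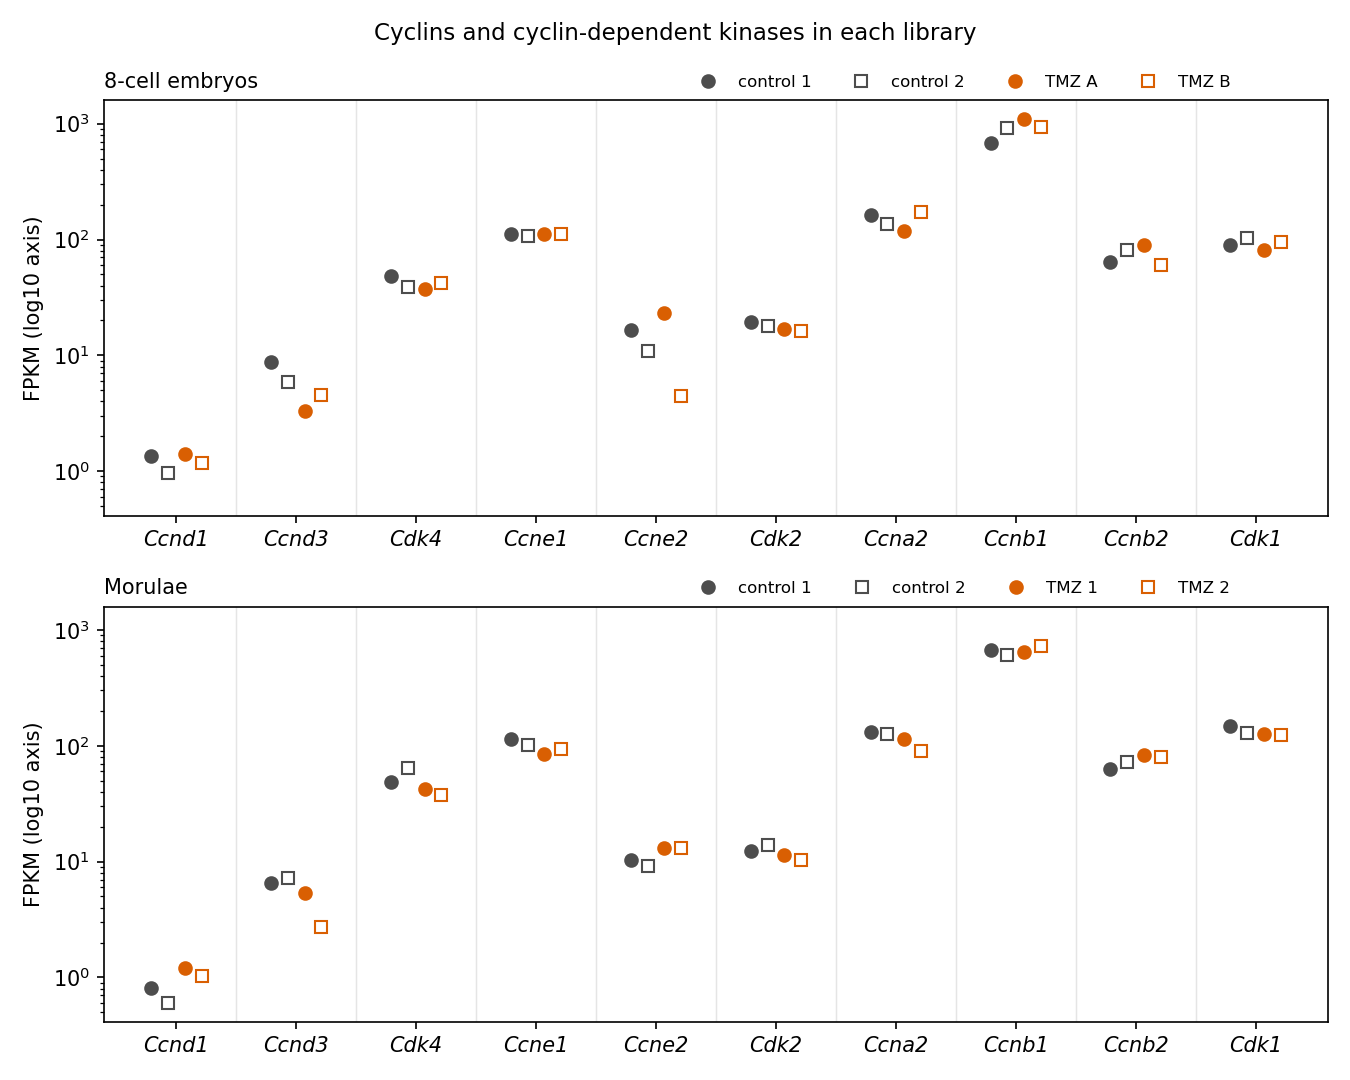
FPKM values (log10 axis) of the 10 cyclin and CDK genes in each library of 8-cell embryos (top) and morulae (bottom), with control libraries in grey and TMZ libraries in orange. Ccnb1 stood highest in every library, at 609 to 1092 FPKM, and Ccnd1 lowest, at 0.601 to 1.41 FPKM.

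Cyclin levels in control embryos spanned a wide range. Ccnb1 led with a mean of 804 FPKM at the 8-cell stage, ahead of Ccna2 with 150 FPKM, Ccne1 with 109 FPKM and Ccnb2 with 72.2 FPKM. Ccne2, at 13.8 FPKM, and Ccnd3, at 7.33 FPKM, came next, and Ccnd1 was last with 1.16 FPKM. Ccnb1 ranked 72nd from the top among the 10021 entries tested, and Ccnd1 ranked 9534th. Control morulae kept the order, with 641 FPKM for Ccnb1, 128 FPKM for Ccna2, 108 FPKM for Ccne1, 67.9 FPKM for Ccnb2, 9.75 FPKM for Ccne2, 6.90 FPKM for Ccnd3 and 0.706 FPKM for Ccnd1. No pair of neighbours in this order overlapped in the control libraries of a table, the closest being Ccna2, at 125 to 163 FPKM over both tables, and Ccne1, at 101 to 116 FPKM. Of the kinases, Cdk1 was highest in control embryos with a mean of 96.5 FPKM in 8-cell embryos and 138 FPKM in morulae, Cdk4 was at 43.6 and 56.6 FPKM, and Cdk2 was at 18.6 and 13.05 FPKM. Both tables were normalized separately, and levels were not tested between stages.

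The first comparison asks whether the genes of G1 differed after TMZ. Ccnd3 was the member with the largest estimated decrease at both stages. Cdk4 was lower in morulae without overlap, and Ccnd1 stayed near the mean of 1 FPKM required for a test. Ccnd3 (ENSMUSG00000034165; chromosome 17, 47815767 to 47910624, plus strand, GRCm39) encodes cyclin D3. In 8-cell embryos it stood at 8.82 and 5.84 FPKM in control and at 3.34 and 4.52 FPKM in TMZ libraries A and B. In morulae it stood at 6.58 and 7.23 FPKM in control libraries 1 and 2 and at 5.34 and 2.75 FPKM in TMZ libraries 1 and 2. All 4 TMZ values lay below both control values of their table. The log2 fold change at the 8-cell stage was -0.74 (95% confidence interval -1.64 to 0.15), with an unadjusted P of 0.0938 and an adjusted P of 0.786 by limma-trend. In morulae it was -0.70 (95% confidence interval -1.39 to 0.00), with an unadjusted P of 0.0502 and an adjusted P of 0.255. This lies at the edge of the threshold. Ccnd3 in morulae was past it in 5 of 8 other settings. Among them were voom (-0.85, unadjusted P of 0.0204) and a pseudocount of 0.1 FPKM (-0.83, unadjusted P of 0.0491 by limma-trend). By limma-trend it fell short under median-ratio scaling (-0.59, unadjusted P of 0.0779). It also fell short without a filter on low values (unadjusted P of 0.117) and in a joint fit of all 8 libraries (unadjusted P of 0.0660). The estimate was -1.08 without TMZ library 1, -0.32 without TMZ library 2, -0.76 without control library 1 and -0.64 without control library 2. Of the 31-base stretches of Ccnd3, 8.5% occur elsewhere in the genome, among them 209 in the pseudogene Ccnd3-ps, whose entry had 0.0791 to 1.0003 FPKM over the 8-cell libraries.

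Cdk4 (ENSMUSG00000006728; chromosome 10, 126895180 to 126903789, plus strand) encodes the kinase partner of the D-type cyclins. Its 8-cell values were 48.1 and 39.0 FPKM in control and 37.5 and 42.5 FPKM after TMZ, and the groups overlapped. In morulae both TMZ values, 42.4 and 37.4 FPKM, lay below the control values of 48.8 and 64.4 FPKM. The morula log2 fold change was -0.48 (95% confidence interval -0.96 to -0.01), with an unadjusted P of 0.0462 and an adjusted P of 0.249 by limma-trend, and it did not reach the required size. Without control library 1 it was past the threshold at -0.68 (unadjusted P of 0.0150), and without control library 2 it was -0.29 (unadjusted P of 0.199). At the 8-cell stage the estimate was -0.12 (95% confidence interval -0.79 to 0.56).

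Ccnd1 (ENSMUSG00000070348; chromosome 7, 144483668 to 144493662, minus strand), which encodes cyclin D1, had 1.36 and 0.967 FPKM in control and 1.41 and 1.18 FPKM in TMZ-treated 8-cell embryos. These groups overlapped, with a log2 fold change of 0.09 (95% confidence interval -0.75 to 0.92). In morulae both TMZ values, 1.22 and 1.03 FPKM, were above the control values of 0.810 and 0.601 FPKM, but the mean over the table was under 1 FPKM and the gene was not tested there. Its entries rested on 95 to 361 fragments. Ccnd1 therefore lay on the other side of control from Ccnd3 in morulae, as values without a test.

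At the step from G1 to S phase, the 2 E-type cyclins differed from each other in morulae. Ccne1 was lower after TMZ and Ccne2 higher, both without overlap and neither called, while at the 8-cell stage Ccne1 was nearly level and Ccne2 was scattered. Ccne1 (ENSMUSG00000002068; chromosome 7, 37797404 to 37808264, minus strand), which encodes cyclin E1, had 110.8 and 107.3 FPKM in control and 111.1 and 111.9 FPKM in TMZ-treated 8-cell embryos. The log2 fold change of 0.03 (95% confidence interval -0.56 to 0.63) goes with TMZ values just above the control values. In morulae the 85.0 and 94.5 FPKM after TMZ lay below the 116 and 101 FPKM of control, with a log2 fold change of -0.27 (95% confidence interval -0.66 to 0.12).

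Ccne2 (ENSMUSG00000028212; chromosome 4, 11190303 to 11204947, plus strand) encodes cyclin E2. Its 8-cell values were 16.5 and 10.96 FPKM in control and 23.4 and 4.41 FPKM in TMZ libraries A and B. The TMZ libraries thus held both the highest and the lowest value, and the estimate of -0.33 had the widest interval of any member (-1.76 to 1.09). Leaving out TMZ library A moved it to -1.42 (unadjusted P of 0.00472) and leaving out library B to 0.75, so a single library sets its sign. In morulae both TMZ values, 13.2 and 12.98 FPKM, were above the control values of 10.4 and 9.11 FPKM, with a log2 fold change of 0.39 (95% confidence interval -0.06 to 0.85) and an unadjusted P of 0.0771 by limma-trend. When the libraries of the table were rescaled by median ratios, it was 0.51 (unadjusted P of 0.0345) and past the threshold.

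Cdk2 (ENSMUSG00000025358; chromosome 10, 128533796 to 128540963, minus strand), the kinase of cyclins E and A, was lower after TMZ without overlap at both stages. Its values were 19.3 and 17.8 FPKM in control against 17.0 and 16.3 FPKM after TMZ in 8-cell embryos. In morulae they were 12.3 and 13.8 FPKM in control against 11.4 and 10.4 FPKM after TMZ. The log2 fold changes were -0.15 (95% confidence interval -0.87 to 0.57) and -0.24 (95% confidence interval -0.69 to 0.21), small against these intervals. With median-ratio scaling the 8-cell estimate turned to 0.13.

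Ccna2 (ENSMUSG00000027715; chromosome 3, 36619014 to 36626299, minus strand) encodes cyclin A2, the cyclin of S phase and G2. In 8-cell embryos it had 163 and 137 FPKM in control and 118 and 172 FPKM after TMZ, so TMZ held the highest and the lowest value. The log2 fold change was -0.07 (95% confidence interval -0.74 to 0.59), and median-ratio scaling turned it to 0.22. In morulae the TMZ values of 113 and 89.4 FPKM lay below the control values of 131 and 125 FPKM. The log2 fold change there was -0.34 (95% confidence interval -0.76 to 0.08), with an unadjusted P of 0.0931 and an adjusted P of 0.312 by limma-trend. It was -0.17 when TMZ library 2 was left out and -0.51 when TMZ library 1 was.

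Among the mitotic genes, both B-type cyclins had estimates above 0 at both stages, with Ccnb1 higher without overlap in 8-cell embryos and Ccnb2 in morulae, and Cdk1 had estimates below 0. None was called. Promoters of mitotic genes are known to carry CCAAT boxes, bound by NF-Y, and the cell cycle homology region (CHR), read by complexes that hold these genes down in G1 and raise them towards mitosis, whereas E2F sites are known from genes of G1 and S phase. The promoter windows of the 3 mitotic genes are shown for these elements, and that of Ccne1 as one without a match. Each runs from 250 bases before to 50 bases after the start of transcription, on the strand of the gene, from RefSeq on GRCm38, at chr13:100786437-100786736 for Ccnb1, chr9:70421505-70421804 for Ccnb2, chr10:69352863-69353162 for Cdk1 and chr7:38107441-38107740 for Ccne1, all on the minus strand. Capitals mark each match, on either strand, to CCAAT, to the CHR letters TTTGAA or to the E2F letters TTTCCCGC and TTTGGCGC.
Ccnb1: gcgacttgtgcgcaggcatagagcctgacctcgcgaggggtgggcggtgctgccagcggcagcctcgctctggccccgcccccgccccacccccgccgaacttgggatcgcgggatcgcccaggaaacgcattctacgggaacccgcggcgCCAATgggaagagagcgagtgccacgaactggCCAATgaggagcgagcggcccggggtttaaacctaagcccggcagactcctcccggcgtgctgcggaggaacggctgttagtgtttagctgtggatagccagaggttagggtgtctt
Ccnb2: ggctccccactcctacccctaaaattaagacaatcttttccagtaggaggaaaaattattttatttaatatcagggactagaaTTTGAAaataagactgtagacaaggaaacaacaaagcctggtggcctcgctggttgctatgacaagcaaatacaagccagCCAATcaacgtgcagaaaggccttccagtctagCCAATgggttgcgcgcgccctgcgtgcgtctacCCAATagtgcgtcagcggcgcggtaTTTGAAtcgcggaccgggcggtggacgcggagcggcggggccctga
Cdk1: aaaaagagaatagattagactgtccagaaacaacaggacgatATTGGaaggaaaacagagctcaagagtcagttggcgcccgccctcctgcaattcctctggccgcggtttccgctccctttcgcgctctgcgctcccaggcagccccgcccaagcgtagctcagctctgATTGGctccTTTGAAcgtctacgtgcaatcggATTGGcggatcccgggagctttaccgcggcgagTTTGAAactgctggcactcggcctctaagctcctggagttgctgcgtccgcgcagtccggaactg
Ccne1: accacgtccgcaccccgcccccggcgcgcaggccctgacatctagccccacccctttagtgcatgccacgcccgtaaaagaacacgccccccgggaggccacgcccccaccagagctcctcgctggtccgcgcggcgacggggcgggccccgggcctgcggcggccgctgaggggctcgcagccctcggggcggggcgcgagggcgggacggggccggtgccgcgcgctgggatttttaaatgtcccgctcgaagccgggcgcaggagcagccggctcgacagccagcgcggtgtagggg

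Ccnb1 held 2 CCAAT boxes, at positions -99 to -95 and -67 to -63 counted from the start. Ccnb2 held 3, at -87 to -83, -54 to -50 and -21 to -17, and 2 CHR matches, at -167 to -162 and 5 to 10. Cdk1 held 3 CCAAT boxes on the opposite strand, at -208 to -204, -80 to -76 and -48 to -44, and 2 CHR matches, at -71 to -66 and -15 to -10. The window of Ccne1 held no match, but CCAAT was not limited to mitotic genes, since Ccnd3 held it at -108 to -104 and Cdk2 at -45 to -41. Of 32851 mouse promoter windows of the same length, 37.4% held CCAAT, 17.9% held the CHR letters and 1.56% held either E2F sequence. Of the members, 7 had a window in this set, with 8 windows in all, of which 5 held CCAAT, 2 the CHR letters and 1, that of Cdk2, an E2F sequence. Ccna2, Ccnd1 and Ccne2 had no entry. These matches describe letters and not bound sites. Other forms of the CHR and of E2F sites were not searched, so a window without a match may still hold such an element.

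Ccnb1 (ENSMUSG00000041431; chromosome 13, 100915153 to 100923116, minus strand, GRCm39) encodes cyclin B1, whose rise and destruction time mitosis. In 8-cell embryos both TMZ values, 1092 and 933 FPKM, were above the control values of 682 and 927 FPKM, although TMZ library B exceeded control library 2 only narrowly. The log2 fold change was 0.34 (95% confidence interval -0.24 to 0.93), with an unadjusted P of 0.216 by limma-trend. In morulae the groups overlapped, with 673 and 609 FPKM in control and 650 and 725 FPKM after TMZ, and the log2 fold change was 0.10 (95% confidence interval -0.24 to 0.44). Of the 31-base stretches of Ccnb1, 44.6% occur elsewhere in the genome, in pseudogenes such as Ccnb1-ps, Gm12856 and Gm8416 and within the bounds of the lncRNA genes Gm41095, Gm12865 and Gm73300, for which no value is given. The pseudogene entries were low, with 8.29 to 16.2 FPKM for Ccnb1-ps and 10.3 to 11.8 FPKM for Gm12856 in the 8-cell libraries. How reads with several matches were counted is not given in the sources used here, so the level of Ccnb1 is less certain than those of the other members.

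Ccnb2 (ENSMUSG00000032218; chromosome 9, 70314966 to 70328874, minus strand) encodes cyclin B2. Its 8-cell values overlapped, with 63.9 and 80.5 FPKM in control and 90.1 and 60.7 FPKM after TMZ, and the log2 fold change was 0.04 (95% confidence interval -0.67 to 0.75). In morulae both TMZ values, 83.7 and 79.4 FPKM, were above the control values of 63.6 and 72.2 FPKM. The log2 fold change there was 0.26 (95% confidence interval -0.12 to 0.65), with an unadjusted P of 0.148 by limma-trend.

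Cdk1 (ENSMUSG00000019942; chromosome 10, 69170976 to 69236595, minus strand) encodes the kinase of mitosis. Its 8-cell values overlapped, with 90.4 and 103 FPKM in control and 80.7 and 95.8 FPKM after TMZ, a log2 fold change of -0.13 (95% confidence interval -0.76 to 0.50) that median-ratio scaling turned to 0.16. In morulae the TMZ values of 126 and 123 FPKM lay just below the control values of 148 and 128 FPKM, with a log2 fold change of -0.15 (95% confidence interval -0.52 to 0.22).

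**Figure D2:**
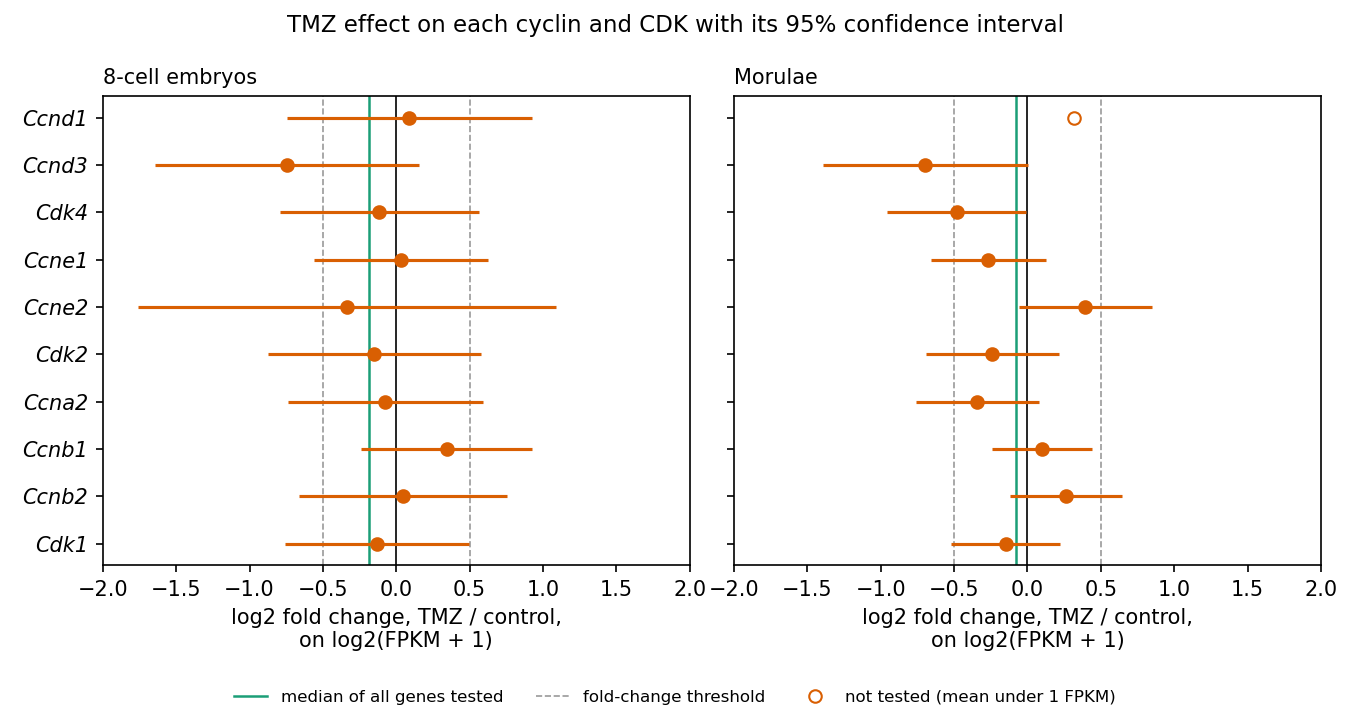
Log2 fold change of TMZ over control on the log2(FPKM + 1) scale for each gene (points) with its 95% confidence interval (bars) in 8-cell embryos and morulae, the median of all entries tested (green line) and the fold change a call requires (dashed lines). Ccnd3 lies farthest to the left at both stages, and in morulae the interval of Cdk4 ends at -0.01 while that of every other tested gene includes 0.

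By class, the median log2 fold change in morulae was -0.59 for the 2 G1 genes tested (Ccnd3 and Cdk4), -0.24 for the G1/S genes, -0.34 for Ccna2 alone and 0.10 for the mitotic genes. At the 8-cell stage these medians were -0.12, -0.15, -0.07 and 0.04, but there the G1 class also held Ccnd1. For Ccnd3 and Cdk4 alone the 8-cell median was -0.43, so the G1 medians of the stages do not cover the same genes. All entries tested had medians of -0.08 in morulae and -0.19 at the 8-cell stage. The classes hold 1 to 3 genes each, and these medians are a description. Without overlap, 2 of the 10 genes were lower after TMZ at the 8-cell stage (Ccnd3 and Cdk2) and 2 were higher (Ccne1 and Ccnb1), where 29.6% and 8.09% of all entries were. In morulae 6 of the 9 tested were lower (Ccnd3, Cdk4, Ccne1, Cdk2, Ccna2 and Cdk1) and 2 were higher (Ccne2 and Ccnb2), where 33.3% and 22.3% of all entries were. Rescaling by median ratios moved the median of all entries by more at the 8-cell stage, from -0.19 to 0.05, than in morulae, from -0.08 to 0.03. Against these rescaled medians Ccnd3 remained below, at -0.50 and -0.59, and Ccnb1 and Ccnb2 remained above, at 0.64 and 0.33 in 8-cell embryos and 0.23 and 0.39 in morulae. None of these estimates was past the threshold.

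Ratios of 2 genes in the same library do not depend on how that library was scaled. Of 10 such ratios, 1 was higher and 3 were lower after TMZ without overlap in 8-cell embryos, and 4 were higher and 1 was lower in morulae. Of the ratios between all pairs of entries tested, 35.5% and 52.7% did not overlap between the groups, so the share among the cyclins and CDKs lay near that of all entries. In morulae the log2 ratio of Ccnb2 to Ccna2 was -1.04 and -0.79 in control and -0.44 and -0.17 after TMZ, and that of Ccnb1 to Ccna2 was 2.36 and 2.28 in control and 2.52 and 3.02 after TMZ. Both mitotic cyclins thus stood higher relative to cyclin A2 in each TMZ library. The 8-cell ratios overlapped, with -1.35 and -0.77 against -0.39 and -1.50 for Ccnb2 to Ccna2. The ratio of Ccnb1 to its kinase Cdk1 was higher after TMZ without overlap at both stages, with 2.92 and 3.18 in control against 3.76 and 3.28 after TMZ in 8-cell embryos and 2.19 and 2.25 against 2.37 and 2.56 in morulae. The log2 ratio of Ccnd3 to Ccna2 was lower without overlap at both stages, with -4.21 and -4.55 in control against -5.14 and -5.25 after TMZ in 8-cell embryos. In morulae it was -4.32 and -4.11 in control against -4.41 and -5.03 after TMZ, where TMZ library 1 lay close to control library 1. The ratio of Ccne2 to Ccne1 was -3.48 and -3.47 in control morulae and -2.68 and -2.86 after TMZ, with both control values close together. With 2 libraries a group, an exact permutation test of a ratio cannot reach the threshold, and no P is given.

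**Figure D3:**
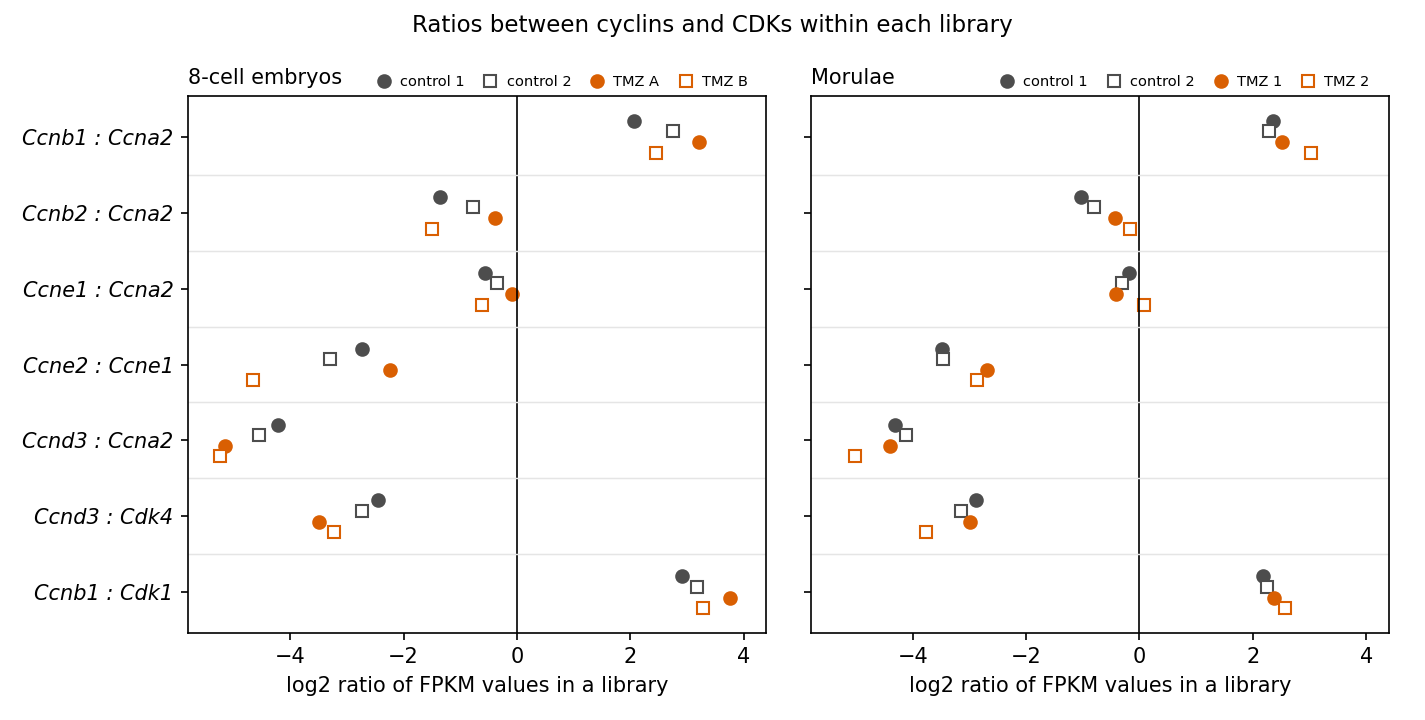
Log2 ratios between the FPKM values of pairs of genes within each library of 8-cell embryos (left) and morulae (right), control in grey and TMZ in orange. In morulae Ccnb1 and Ccnb2 relative to Ccna2, and Ccne2 relative to Ccne1, are above both control values in each TMZ library, and at the 8-cell stage these ratios overlap.

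As a share of the summed FPKM of the 7 cyclins, Ccnb1 made up 65.2% and 73.0% in control and 75.9% and 72.5% in TMZ-treated 8-cell embryos, with overlap. In morulae it made up 67.3% and 65.9% in control and 68.3% and 72.1% after TMZ, higher in both TMZ libraries. The share of Ccna2 in morulae was 13.1% and 13.5% in control and 11.9% and 8.90% after TMZ. The share of Ccne1 there was 11.5% and 10.9% in control and 8.92% and 9.40% after TMZ. The summed level of the 7 cyclins overlapped, at 1001 and 924 FPKM in control morulae and 952 and 1005 FPKM after TMZ. The shares of a library are parts of one sum, so a higher share of Ccnb1 goes with lower shares of other cyclins. Ccnb1, whose level overlapped in morulae and is less certain than the others, makes up most of that sum.

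Whether the effect of TMZ differed between stages was tested as the interaction of stage and treatment over all 8 libraries. None of the 10 genes passed the threshold, where 7.86% of the 8089 genes tested did. The lowest unadjusted P among the 10 was 0.290 by limma, that of Cdk4, whose effect was lower in morulae by 0.37 on the log2 scale (95% confidence interval of the difference -1.11 to 0.37). The largest estimated difference was 0.73 for Ccne2 (95% confidence interval -1.07 to 2.52). Differences between the stages described above are therefore not shown to be differences of effect.

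The regulators of these kinases included genes that were called. Among the CDK inhibitors, 2 of the 3 tested in morulae were higher after TMZ, and 0 of the 4 tested at the 8-cell stage were called, where 7.16% of all entries in morulae were higher and 6.31% of those in 8-cell embryos were called in either direction. Cdkn1a, which encodes p21, a CDK inhibitor and target of p53, had 32.6 and 24.2 FPKM in control morulae and 48.7 and 45.4 FPKM after TMZ. Its log2 fold change was 0.72, with an unadjusted P of 0.00942 and an adjusted P of 0.175 by limma-trend, and the call was lost without TMZ library 1 and with all 8 libraries in one fit. At the 8-cell stage its values overlapped, with 32.9 and 20.7 FPKM in control and 14.3 and 25.7 FPKM after TMZ. Cdkn3, whose product removes an activating phosphate from CDKs, had 3.14 and 2.61 FPKM in control morulae and 7.11 and 4.99 FPKM after TMZ, with a log2 fold change of 0.85 and a call that was lost without control library 2 or without TMZ library 1. The third, Cdkn2d, had 12.4 and 12.2 FPKM against 10.1 and 12.4 FPKM. Cdkn1b, which encodes p27, stood at 0.215 FPKM or less in every library.

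Among 10 activators and inhibitory kinases of the CDKs, 2 of 8 tested in morulae and 1 of 9 in 8-cell embryos were higher, against 7.16% and 1.35% of all entries, and none was lower. Cks2, a small subunit that binds CDK1 and helps it to its substrates, was called at both stages. It had 1719 and 2161 FPKM in control and 3846 and 3186 FPKM in TMZ-treated 8-cell embryos, a level above that of Ccnb1. Of its 31-base stretches 76.7% occur elsewhere in the genome, so this level is uncertain. The 8-cell call was lost without control library 1. In morulae it had 2197 and 1383 FPKM in control and 2362 and 3079 FPKM after TMZ, and it fell short of the threshold there without control library 2, without TMZ library 2, without a filter on low values or without a variance trend. The log2 fold changes were 0.86 and 0.63. Ccnh, the cyclin of the CDK-activating kinase, was higher in morulae, with 34.9 and 25.4 FPKM in control and 44.4 and 45.5 FPKM after TMZ. Its call was lost without control library 2, without either TMZ library or without a filter on low values. Wee1, Pkmyt1, Cdc25a and Cdc25c, which set the inhibitory phosphates of CDK1 and CDK2 or remove them, were not called at either stage.

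Of the retinoblastoma and E2F genes, 1 of the 7 tested in 8-cell embryos and 1 of the 6 tested in morulae was lower, against 4.96% and 10.7% of all entries, and none was higher. It was E2f4 both times, which encodes an E2F that acts mostly as a repressor, with 58.5 and 38.9 FPKM in control against 30.3 and 23.9 FPKM after TMZ in 8-cell embryos. In morulae it had 51.4 and 53.1 FPKM against 41.2 and 30.7 FPKM. Under median-ratio scaling the log2 fold changes of -0.80 and -0.54 became -0.52 and -0.42, and neither was past the threshold. The call was also lost without control library 1 or TMZ library B in 8-cell embryos, and in morulae when any library but TMZ library 1 was left out. Without a filter on low values it was lost at both stages. It was lost too without a variance trend in 8-cell embryos and with all 8 libraries in one fit in morulae. Of the activators of mitotic genes, Mybl2, which encodes B-Myb, was lower at the 8-cell stage. It had 9.12 and 6.81 FPKM in control and 1.46 and 4.32 FPKM after TMZ. Of its 31-base stretches 28.1% occur elsewhere in the genome. Its call was lost without control library 1, without TMZ library A or without a filter on low values. The other 3 tested of this list, Lin9, Lin52 and Lin54, were not called at that stage, and 0 of the 4 tested in morulae were.

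Among 23 genes of cyclin proteolysis, 20 were tested at each stage and 1 was called at each, beside 6.31% of all entries in 8-cell embryos and 17.9% in morulae. Fbxo5, which encodes EMI1, an inhibitor of the anaphase-promoting complex that protects cyclins A and B, was higher at the 8-cell stage, with 29.1 and 54.3 FPKM in control and 90.7 and 66.5 FPKM after TMZ. That call was lost without control library 1, without TMZ library A, without a filter on low values or without a variance trend. Ube2s, a ubiquitin-conjugating enzyme of the same complex, was lower in morulae, with 17.3 and 22.0 FPKM in control and 15.04 and 11.4 FPKM after TMZ, and median-ratio scaling and a pseudocount of 0.1 FPKM ended that call, among other settings. Of the other cyclins and CDKs of the cell cycle, Ccng1, a p53 target that encodes cyclin G1, was higher in morulae, at 23.7 and 18.0 FPKM against 10.2 and 9.47 FPKM in control. Its log2 fold change was 1.001, with an unadjusted P of 0.00232 and an adjusted P of 0.161 by limma-trend, and it was called whichever of the 4 libraries was left out but not with all 8 libraries in one fit. Ccnd2 and Cdk6, the remaining D-type cyclin and its kinase, stood below 1 FPKM in every library.

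The cyclins and CDKs that act on RNA polymerase II, a comparison set outside the cycle, gave 1 higher and 2 lower of the 8 tested in morulae and none of the 8 tested at the 8-cell stage, against 7.16% higher and 10.7% lower of all entries in morulae and 6.31% called at the 8-cell stage. Ccnc was higher, with 25.8 and 26.7 FPKM after TMZ against 19.2 and 16.3 FPKM in control. Ccnk was lower, with 1.76 and 1.48 FPKM against 3.20 and 3.80 FPKM, and so was Cdk9, the kinase of transcription elongation, with 3.66 and 3.68 FPKM against 6.46 and 6.32 FPKM. The call of Ccnc was lost without control library 2 or without either TMZ library. That of Ccnk was lost without control library 2 or TMZ library 2, and that of Cdk9 without control library 1 or either TMZ library.

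**Figure D4:**
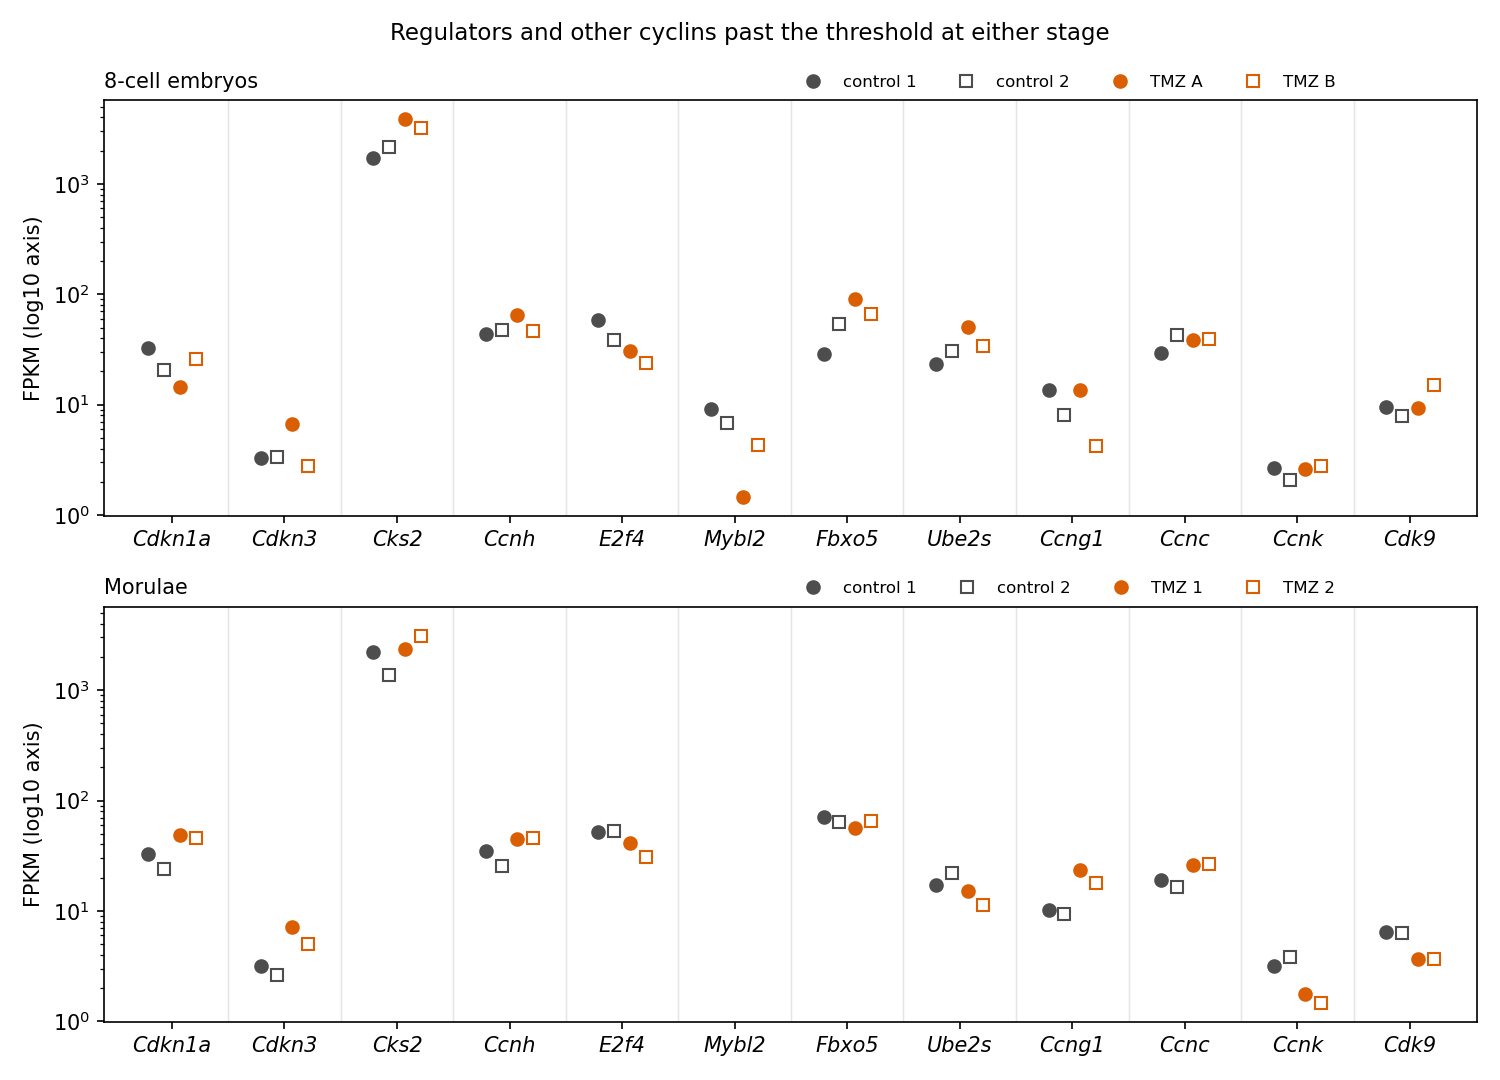
FPKM values (log10 axis) in each library of the 12 regulators and other cyclins or CDKs past the threshold at either stage, 8-cell embryos (top) and morulae (bottom). Cdkn1a, Cdkn3, Ccng1 and Ccnh lie above both control values in each TMZ library of morulae, and Cks2 does so at both stages. Mybl2 has no entry given a name in the morula table.

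For 5 of the regulators drawn above, Mybl2 aside, the difference of the TMZ effect between stages was past the threshold. This was by an unadjusted P of limma and not after adjustment, where 7.86% of the 8089 genes tested were past it. The regulators were chosen for a call at either stage, so this is a description of them. The morula effect was above the 8-cell effect by 1.14 on the log2 scale for Cdkn1a (95% confidence interval 0.10 to 2.19) and below it for Fbxo5, Ube2s, Cdk9 and Ccnk. The difference for Ccng1, 1.41, had an interval from -0.01 to 2.82.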

How the data were processed

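RNA of 8-cell embryos and morulae, control or treated with TMZ, was sequenced with 2 libraries in each of 4 groups. By the submitters' processing notes, the authors trimmed reads with fastp 0.23.4, aligned them to GRCm39 with STAR 2.7.9a and counted fragments with featureCounts 2.0.6. The authors deposited FPKM values in a table per stage, and the study tested counts with DESeq2. The annotation release and the strand setting are not given in the sources used here.

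Since FPKM divides whole fragments by length and depth, the library totals could be recovered, and each entry's length up to a whole factor. Fragment numbers are the smallest that fit the values. A pair hidden Markov model matched these lengths to the exon lengths of GENCODE vM39 genes in the order of their Ensembl identifiers, leaving out recently numbered transcripts. Names were kept at a posterior of at least 0.95, which named 25349 of 31899 entries in 8-cell embryos and 22496 of 29202 in morulae. The 10 members had posteriors of at least 0.992 and the same length in both tables. Exon stretches of 31 bases were searched over GRCm39.

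Within each table, limma 3.58.1 (R 4.3.3) fitted log2(FPKM + 1) with a variance trend for entries whose mean reached 1 FPKM, with no covariate. The design had named the study's thresholds (unadjusted P under 0.05, log2 fold change beyond 0.5). Adjusted P-values are Benjamini-Hochberg values over the entries tested in each table. Stage differences are interaction terms over all 8 libraries, adjusted over the 8089 genes tested. No P was computed over a gene list. The fits were tested on simulated data. Alternatives changed the pseudocount, the filter, the scaling (median ratios), the variance model (no trend, or voom on recovered fragments), the samples in the fit and the replicate block, and left out each library. All members are named, and of the lists of regulators the genes past the threshold. The members and lists were chosen with earlier results of these data known, and the search for shared stretches and the promoter motifs were added after the values were seen.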

Additional observations from a re-analysis of the deposited data

Results flagged for a closer look

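None of the 10 cyclins and CDKs had an effect of TMZ that differed between stages past the threshold. Of their regulators and of the transcriptional cyclins and CDKs called at either stage, 5 did. The genes of that set were chosen for a call in the same libraries. The 7.86% of the 8089 genes tested that passed is therefore no like measure for them, and the 5 are a description. They passed by the interaction term of limma at an unadjusted P, with adjusted P-values from 0.523 to 0.592. The effect in morulae minus that in 8-cell embryos was 1.14 on the log2 scale for Cdkn1a (unadjusted P of 0.0344). It was -1.10 for Fbxo5 (unadjusted P of 0.0281), -1.14 for Ube2s (unadjusted P of 0.0178), -1.07 for Cdk9 (unadjusted P of 0.0257) and -0.92 for Ccnk (unadjusted P of 0.0346). Of the 31-base stretches of Ube2s 25.3% occur elsewhere in the genome, of those of Fbxo5 19.6% and of those of Cdk9 15.5%.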

How the results depend on the processing

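With entries of 5 FPKM or more, 281 entries were called at the 8-cell stage and 1058 in morulae, and with all 8 libraries in one fit 990 and 766, against 632 and 1733. Leaving out a library gave 276 to 1837 calls at the 8-cell stage (1837 without TMZ library B, 999 without A, 286 and 276 without control library 1 or 2) and 786 to 1869 in morulae (786 without TMZ library 2, 1122 without control library 2). A group left with 1 library is assumed to vary like the other group. Median-ratio scaling raised the share of higher calls in 8-cell embryos (21.4% to 53.4%) and morulae (40% to 59.8%). Of the cyclins and CDKs, 0 to 1 was called in morulae and at the 8-cell stage when a library was left out. In morulae 1 was called with a pseudocount of 0.1 FPKM, with entries of 5 FPKM or more, without a trend and with voom (Ccnd3 each time), and with median-ratio scaling (Ccne2).

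The labels do not say whether the replicate numbers of the morula libraries pair them by origin. Deviations of same-numbered libraries correlated at 0.0762 across 9685 entries, which cannot settle it. With the replicate block 1 of the 9 tested was called in morulae, Ccnd3 (-0.70, unadjusted P of 0.0263 by limma), and 1989 entries. With the block 229 entries had an adjusted P under 0.05 by limma, against 3 without it. No paired analysis was possible at the 8-cell stage because both TMZ columns carry the same header.

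Signs turned at the 8-cell stage under median-ratio scaling for Cdk4 (0.17), Cdk2 (0.13), Ccna2 (0.22) and Cdk1 (0.16). When a library was left out, estimates ran from -0.0435 to 0.22 for Ccnd1, -0.26 to 0.0331 for Cdk4, -1.42 to 0.75 for Ccne2, -0.34 to 0.20 for Ccna2 and -0.24 to 0.32 for Ccnb2. The stage difference of Ccnd3 turned from 0.05 to -0.10 under median-ratio scaling. No cause of these changes was tested. In morulae none of the 9 members tested changed sign in the settings run. All 10 names held at a posterior of 0.99, but they rest on length and order alone, and fragment numbers are lower limits.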
